A study of Mus musculus with 12 samples.

Results

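Binding of the glucocorticoid receptor (GR) to DNA after tumour necrosis factor (TNF) and dexamethasone (Dex) together was compared with binding without either agent. The cells were BWTG3, a mouse hepatoma line, kept without serum for 24 h. The TNFDEX group (3 libraries) received 1000 U/ml TNF and, 1 h later, 1 µM Dex, with 3 h of stimulation in all, and the NI group (3 libraries) was taken as untreated because its titles name neither agent. GR was precipitated with 1 rabbit antibody and the bound DNA was sequenced (ChIP-seq), and the design text calls the replicates biological. These are 6 of the 11 libraries of the series. The 3 DEX libraries (1 µM Dex alone) and 2 TNF libraries (1000 U/ml TNF alone), each with 3 h of stimulation, were looked up at the same places. DEX was also compared with TNFDEX where both had calls. In TNFDEX, Dex followed TNF by 1 h within the 3 h, so the time with Dex may differ between TNFDEX and DEX. The peaks of the 6 lists were merged into 36332 regions wherever they shared at least 1 bp, out of 47479 regions when all 11 lists are merged, and their median width was 173 bp. A library called a region when a peak of its own list fell there. Peak heights are normalized tag counts, which the authors scaled as if each library held 20000000 tags. Where a library called no peak its level is not known and is not taken as 0. Binding near a gene does not measure its expression, so the labelled cell type could not be checked against expressed markers.

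GR is a hormone-activated transcription factor that waits in the cytoplasm with the chaperone Hsp90, enters the nucleus when a glucocorticoid binds it, and attaches as a dimer to palindromic glucocorticoid response elements. In liver cells it drives genes of gluconeogenesis, amino acid breakdown and the acute phase response, and it represses inflammatory genes. TNF is an inflammatory cytokine that acts through its receptors on the transcription factors NF-kB and AP-1, both of which are known to share regulatory DNA with GR.

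Most regions that appeared with both agents lay outside promoters, and sequence was read only for those in promoter windows. A gained region was one called in 3 of 3 TNFDEX and 0 of 3 NI libraries. Gained regions overlapped 99 of 32851 RefSeq promoter windows (GRCm38.p6, 250 bases before to 50 after a start site), which belonged to 91 genes, 41 of them protein-coding. The response element, AGAACA and TGTTCT with any 3 bases between them, allowing 2 mismatches in the 12 fixed bases on either strand, was present in 14 of those 99 windows (14.1%), in 606 of all 32851 windows (1.84%) and in 48 of the 2592 windows under any merged region (1.85%). The AP-1 motif TGANTCA was present in 14.1% of the 99 windows, 7.81% of all windows and 6.91% of those under any merged region. The NF-kB motif, GGG and CC with any 5 bases between them, was present in 47.5%, 50.8% and 67.6%, so its share was lower in the gained windows than under merged regions in general. The GC content of these sets was 51.3%, 53.8% and 61.4%, and its part in the shares was not tested. These shares are descriptions, both strands were searched, and windows of 1 gene can overlap each other.

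The following 4 promoters under gained regions are shown because each holds a match to the response element, which is in capitals. They are printed 5′ to 3′ on the gene's strand, and only the bases before the start site. Sgk1 encodes a glucocorticoid-induced kinase (chr10:21993640-21993797, plus strand, 250 to 93 bases before the start site), Acnat2 an acyltransferase (chr4:49408152-49408311, minus strand, 160 to 1), Slc10a6 a steroid sulfate transporter (chr5:103629459-103629644, minus strand, 241 to 56) and Sult1a1 a sulfotransferase (chr7:126676419-126676533, minus strand, 115 to 1). The Sgk1 and Acnat2 matches had 0 mismatches, and the Slc10a6 and Sult1a1 matches had 2.
Sgk1: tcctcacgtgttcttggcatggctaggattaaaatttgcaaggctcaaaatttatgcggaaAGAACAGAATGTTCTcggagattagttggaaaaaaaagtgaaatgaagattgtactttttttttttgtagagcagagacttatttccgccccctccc
Acnat2: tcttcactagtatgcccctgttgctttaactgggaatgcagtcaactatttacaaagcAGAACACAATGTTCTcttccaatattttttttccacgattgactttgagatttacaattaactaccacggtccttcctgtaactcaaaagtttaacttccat
Slc10a6: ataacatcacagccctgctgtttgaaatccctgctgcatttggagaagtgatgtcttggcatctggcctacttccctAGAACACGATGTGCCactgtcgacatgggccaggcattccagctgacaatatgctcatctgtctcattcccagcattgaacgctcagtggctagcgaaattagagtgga
Sult1a1: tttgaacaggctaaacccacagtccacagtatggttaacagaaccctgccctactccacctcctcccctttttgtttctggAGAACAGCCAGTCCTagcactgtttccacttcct

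The Slc10a6 promoter region held normalized tag counts of 90.0, 45.8 and 91.7 in TNFDEX replicates 1, 2 and 3, and 48.6, 67.8 and 83.6 in the DEX libraries. The Sult1a1 region held 57.6, 37.5 and 72.0 with both agents and 30.7, 41.8 and 71.9 with Dex alone. The Sgk1 region, with an exact palindrome, was weaker, at 32.3, 11.3 and 28.0 with both agents and 28.8, 43.8 and 27.6 with Dex. In these 3 regions the TNFDEX and DEX values overlapped, and no TNF library held a call. The Acnat2 region held 9.5, 7.4 and 10.3 with both agents, near the lowest values that were called, so an exact motif stood under a weak peak. Its DEX calls were 8.2 and 9.5 in 2 of 3 libraries.

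Another 3 promoters are shown because their regions were called in at most 1 DEX library. Cxcl1 encodes a neutrophil chemokine induced by NF-kB (chr5:90891062-90891244, plus strand, 183 to 1 bases before the start site) and Steap4 a metalloreductase (chr5:7960251-7960471, plus strand, 221 to 1). Fgb encodes the beta chain of fibrinogen, the clotting protein and acute phase reactant (chr3:83049892-83050108, minus strand, 245 to 29). Capitals mark matches to the NF-kB motif on either strand in Cxcl1 and Steap4, 4 overlapping matches in the first and 1 in the second, and the 1 match to TGANTCA in Fgb.
Cxcl1: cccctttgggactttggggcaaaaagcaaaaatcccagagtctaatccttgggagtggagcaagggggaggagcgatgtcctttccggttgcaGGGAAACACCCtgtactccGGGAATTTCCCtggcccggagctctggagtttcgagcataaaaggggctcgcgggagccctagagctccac
Steap4: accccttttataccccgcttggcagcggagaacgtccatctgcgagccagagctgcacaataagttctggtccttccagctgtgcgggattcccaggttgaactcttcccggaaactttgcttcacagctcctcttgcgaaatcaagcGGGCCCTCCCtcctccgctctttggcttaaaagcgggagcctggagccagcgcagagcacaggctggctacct
Fgb: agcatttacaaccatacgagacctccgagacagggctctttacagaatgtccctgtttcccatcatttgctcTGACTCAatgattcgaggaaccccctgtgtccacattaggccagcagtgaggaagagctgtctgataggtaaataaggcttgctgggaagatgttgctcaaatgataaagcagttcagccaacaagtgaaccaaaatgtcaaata

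The Cxcl1 promoter region held 28.2, 14.5 and 30.8 in the TNFDEX libraries, 11.2 in 1 DEX library and 28.4 in 1 TNF library. The Fgb region held 18.2, 9.8 and 23.0 and the Steap4 region 20.7, 10.2 and 13.6 with both agents, and no DEX or TNF library held a call at either. None of the 3 held a match to the response element within 2 mismatches.

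The TNFDEX libraries held more GR peaks and a larger share of their tags in peaks than the NI libraries. Nuclear peaks numbered 5439, 6501 and 2521 in NI replicates 1, 2 and 3 and 22588, 8639 and 14041 in TNFDEX, so every TNFDEX library had more than every NI library. The group means were 4820 ± 2061 (SD, n = 3) and 15089 ± 7033 (n = 3), a 3.13-fold ratio of geometric means (exact two-sided permutation p = 0.1, the smallest that 3 libraries against 3 can give). The share of a library's tags in nuclear peaks was 0.288%, 0.439% and 0.106% in NI and 2.91%, 0.847% and 1.94% in TNFDEX, a 7.08-fold ratio (exact permutation p = 0.1, the smallest possible). Depth was 40391531 to 41384993 tags in NI and 48225044 to 51141996 in TNFDEX, so the TNFDEX libraries were also deeper.

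The libraries also fell into sets by tags in mitochondrial peaks, which made up 0.006%, 0.011% and 0.019% of tags in NI 1, NI 2 and TNFDEX 1 and 0.436%, 0.355% and 0.541% in NI 3, TNFDEX 2 and TNFDEX 3. The labels name no batch that matches this. Peak numbers were 3.80-fold higher with both agents within the low set and 4.37-fold within the high set (within-set mean 4.07-fold, exact permutation p = 0.111, the smallest possible). The share of tags in peaks was 8.18-fold and 12.04-fold higher within the sets. The difference was therefore as large within each set as across them.

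**Figure D1:**
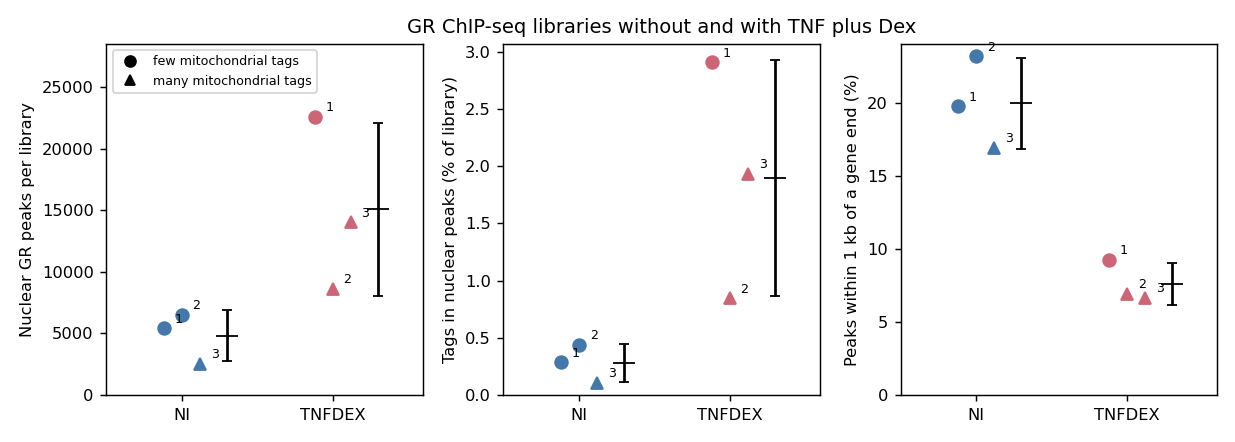
Nuclear GR peaks per library, share of library tags in nuclear peaks (%) and share of peaks within 1 kb of a gene end (%), for NI (blue) and TNFDEX (red) replicates 1 to 3. Circles are libraries with few mitochondrial tags and triangles those with many; the black bar beside each group is its mean and SD (n = 3), and no TNFDEX library falls within the range of the NI libraries in any panel.

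GR regions appeared with both agents and very few disappeared. Of the 36332 regions, 4473 (12.3% of all) were gained, and 12 (0.033%) showed the opposite pattern of a call in 3 of 3 NI and 0 of 3 TNFDEX libraries. Calls in all 6 libraries were found at 149 regions, and 22958 regions (63.2%) were called in a single library. With at least 2 libraries per group, 1998 regions were called in NI and 11365 in TNFDEX. The 1175 regions called in both groups by that rule were 58.8% of the NI regions and 10.3% of the TNFDEX regions. The gained count was 8298 without TNFDEX replicate 2, though leaving out any library loosens the rule. At 4046 of the 4473 gained regions (90.5%) this library had the lowest value, and the median gained value was 31.5, 15.3 and 28.4 in TNFDEX replicates 1, 2 and 3.

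Gained regions ranged from a TNFDEX mean of 6.8 to 835, with a median of 25.4, and 324 of them had a mean of at least 100. The peaks of an NI library never exceeded 346. Among the 5756 regions called in 3 of 3 TNFDEX libraries, 85.0% of the 100 strongest (means of 208 to 835) had no NI call. The share without an NI call was 76.8% from there to rank 500, 74.1% at ranks 501 to 1500, 71.1% at ranks 1501 to 3000 and 82.5% below that. Absence of an NI call was thus found at every strength, and was most frequent at both ends of the ranking. The weakest peaks of the 6 libraries held 11 to 14 tags, so at the weak end a missing call can be a matter of counting error.

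The strongest gained region lay inside Zbtb16, which encodes a transcriptional repressor induced by glucocorticoids (chr9:48723706-48723882). It held 738, 611 and 1158 in the TNFDEX libraries (835 ± 286, n = 3) and 524, 613 and 1176 with Dex alone. A second region in the same gene (chr9:48786874-48787055) held 493, 276 and 532. The level in TNFDEX replicate 2 was the lowest of the 3 in both.

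A further 4 of the 15 strongest gained regions lay in or near Bcl2l1, Cblb, Ass1 and Lpin1. A region inside Bcl2l1, the gene of the survival factor Bcl-xL (chr2:152806181-152806358), held 849, 472 and 811 with both agents, and its only TNF call, 16.7 in replicate 1, was far below them. Cblb, the gene of a ubiquitin ligase that restrains immune receptor signalling, held a region (chr16:52094751-52094929) at 576, 463 and 871. Near Ass1, the gene of the urea cycle enzyme argininosuccinate synthase, a region 9.70 kb away and within Hmcn2 (chr2:31460394-31460570) held 438, 426 and 859. Lpin1 encodes a phosphatidate phosphatase of lipid synthesis, and its region (chr12:16618538-16618728) held 395, 301 and 590. As gained regions they had no NI call by definition, and their lowest TNFDEX value was 301, at Lpin1.

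Other regions among the 15 strongest lay beside Fkbp5, another well-known GR target. Fkbp5 encodes a co-chaperone that limits GR activity and had its strongest region 31.9 kb away and nearest to Armc12 (chr17:28518094-28518274), at 596, 354 and 700. A further region of this locus (chr17:28512866-28513083) held 637, 312 and 678. Within 10.4 kb here, 5 gained regions followed each other with gaps of at most 10 kb. Of 4048 loci made this way, 370 held at least 2 gained regions, and this one and one near Raph1 held 5.

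The remaining 7 of the 15 were 3.68 kb from Gm33049 (chr15:88850581-88850760), 33.0 kb from Slc45a1 (chr4:150685208-150685387), 55.5 kb from Eif3h (chr15:51730849-51731025), inside Nek7 (chr1:138571541-138571721), 19.3 kb from Rab4a (chr8:123786341-123786519), 39.8 kb from Grhl2 (chr15:37192878-37193056) and inside Foxp1 (chr6:99175535-99175716). Their TNFDEX means ran from 473 to 717. The Eif3h region held 614, 413 and 759 with both agents and 241, 313 and 186 with Dex alone, without overlap. In limma the difference between TNFDEX and DEX there was log2 1.11 (SE 0.34, limma adjusted p = 0.515 over 4004 regions), which did not pass. The Slc45a1 region held 565, 460 and 864 against 269, 317 and 666, and the groups overlapped.

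**Figure D2:**
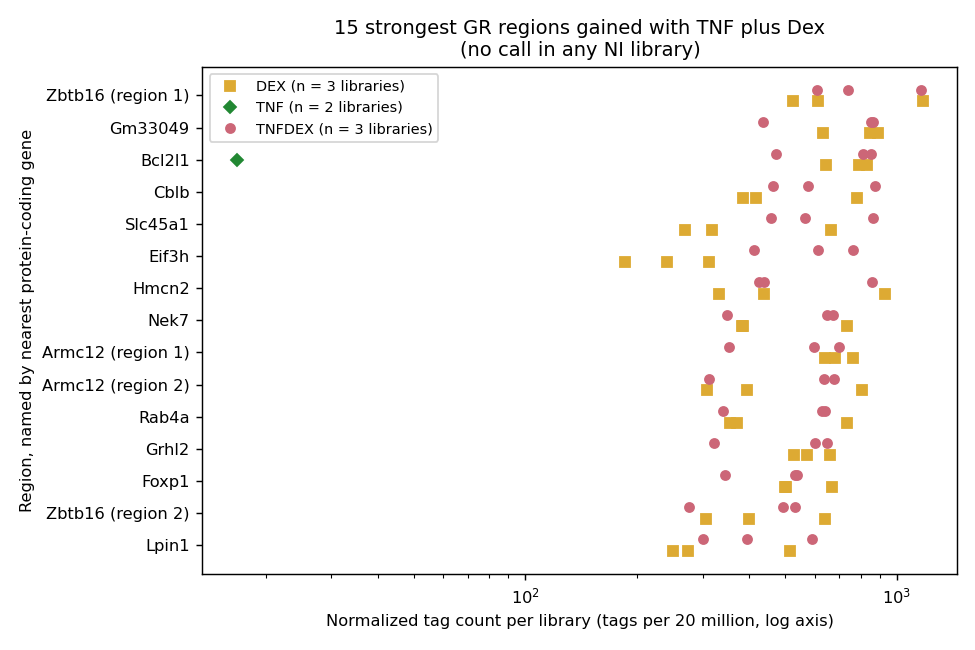
Normalized tag count (log axis) of each library at the 15 strongest gained regions, named by the nearest protein-coding gene, for TNFDEX (red circles, n = 3), DEX (yellow squares, n = 3) and TNF (green diamond, 1 call). No NI library held a call at any of them, by the definition of a gained region. The DEX and TNFDEX points overlap in 14 of the 15 rows, the exception being Eif3h, and the single TNF value is 16.7 at Bcl2l1.

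Most gained regions were also called with Dex alone, and few with TNF alone. Of the 4473, 2844 (63.6%) were called in 3 of 3 DEX libraries, 724 (16.2%) in 2, 679 (15.2%) in 1 and 226 (5.05%) in none. A TNF library held a call at 603 (13.5%), and both TNF libraries did at 24 (0.537%). The 3 DEX libraries held 10473, 13020 and 12951 nuclear peaks in all, and the 2 TNF libraries 8942 and 4130. The part of this difference in the shares was not tested, and the same shares over all 36332 regions are not given here. Of the 324 gained regions with a TNFDEX mean of at least 100, 320 were called in all DEX libraries and 35 in a TNF library. Regions called in 3 DEX and no TNF library had a median TNFDEX mean of 35.6, against 14.4 for those with 1 DEX and no TNF call. The gained regions missing in some DEX libraries were thus the weaker ones.

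No call with either agent alone was found at 211 gained regions (4.72% of the gained), with a median TNFDEX mean of 13.2 and a highest mean of 65.4. The strongest lay 166 kb from Gm50595 (chr2:75285359-75285547) and held 49.4, 57.1 and 89.6. One 10.1 kb from Coa7, which encodes a mitochondrial assembly factor of cytochrome c oxidase (chr4:108317827-108318003), held 61.0, 41.1 and 70.7. One inside Ptprr, a tyrosine phosphatase gene (chr10:116100005-116100192), held 49.8, 45.8 and 75.7. One inside Parva, the gene of the adhesion protein alpha-parvin (chr7:112474064-112474303), held 53.9, 39.1 and 67.4. One 185 kb from Dusp10, which encodes a phosphatase of stress-activated kinases (chr1:184260865-184261041), held 49.8, 40.3 and 67.4. The other 5 of the 10 strongest were nearest to Cant1, Xxylt1, Gsx1, Actl7b and Ano6, with means of 36.9 to 39.4. Leaving out TNFDEX replicate 1 gave 344 in place of 211, and leaving out TNFDEX replicate 2 gave 1056. Leaving out a library loosens the rule, so a rise by itself does not show dependence on that library.

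Where signal could be compared directly, with a call in all TNFDEX and DEX libraries, 1 of 4004 regions was higher with both agents (0.025%) and 0 were lower (256 at an unadjusted p of 0.05 or less, limma). It lay nearest to Cemip2, which encodes a hyaluronidase (chr19:21947984-21948163). It held 12.9, 10.2 and 15.1 with Dex and 100.4, 41.8 and 63.7 with both agents (log2 2.21, SE 0.27, limma adjusted p = 0.0486). It had no NI or TNF call. With the mitochondrial set as a term, 28 regions were higher and 1 was lower.

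There were 24 gained regions called in both TNF libraries, and TNF values are given for the strongest of them by TNFDEX mean. The strongest, 447 kb from Pdcd1 (chr1:94499838-94500021), held 166, 54.4 and 137 with both agents and 12.2 and 8.7 with TNF. One 38.7 kb from Eed, a Polycomb subunit gene (chr7:90019645-90019829), held 80.5, 46.5 and 114 with both agents and 10.1 and 7.8 with TNF. At both, every TNFDEX value was above every TNF value. Both were chosen for a high TNFDEX mean, so this does not describe the 24 as a set. The 1 without a DEX call had a TNFDEX mean of 9.63.

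**Figure D3:**
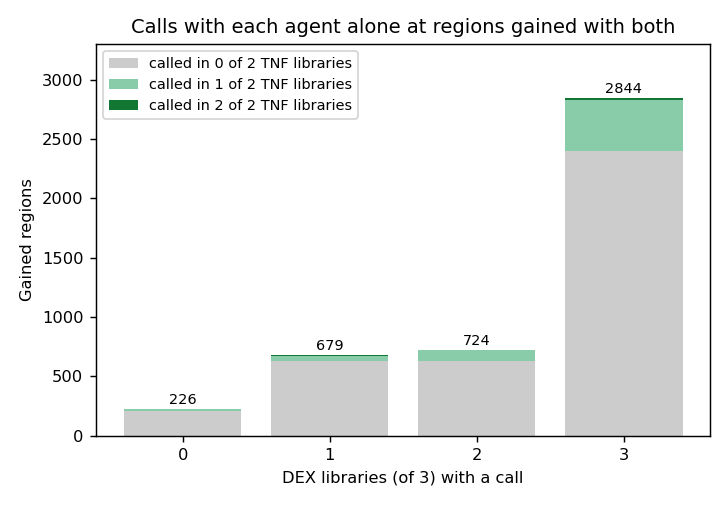
Number of the 4473 gained regions by how many of the 3 DEX libraries held a call (bars: 226, 679, 724 and 2844 regions), with shades for calls in 0, 1 or 2 of the 2 TNF libraries. The bar for all 3 DEX libraries is the tallest, and calls in both TNF libraries are a thin dark band (24 regions in all).

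The 12 regions with NI calls only were weak and mostly at promoters. Their NI means ran from 7.63 to 21.8, and 10 of them lay within 1 kb of a gene end. The strongest, in Rpl10a, a ribosomal protein gene (chr17:28328550-28328762), held 20.3, 27.1 and 17.9. The next, in Rbm12 (chr2:156111731-156111923), held 11.9, 21.7 and 11.1. Other regions lay in Parpbp (11.9, 13.5 and 9.2) and Rpl27, another ribosomal protein gene (9.9, 13.5 and 10.7). Rbm12 and Rpl27 had no DEX or TNF call either. The count of 12 was set by single libraries, at 40, 49 and 269 without NI replicates 1, 2 and 3 and 33 without TNFDEX replicate 1.

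At the 149 regions called in all 6 libraries, those occupied before treatment as well, signal was higher with both agents before any rescaling. The median difference was log2 0.74 (1.67-fold), and 132 of the 149 were higher and 17 lower. Values in TNFDEX were above those in NI without overlap at 32 regions and below without overlap at 0. All 149 were also called in at least 1 TNF library and 145 in 3 DEX libraries. Libraries were then scaled to each other by TMM, a trimmed mean of their log ratios over these regions, so changes are relative to that shift, and limma called 22 regions higher (14.8%) and 6 lower (4.03%). All 28 had the same direction within both mitochondrial sets, but these are the values that gave the calls, so this is no separate check. With the mitochondrial set as a term, limma called 31 higher and 31 lower. The number of higher calls was 14, 141, 14 and 10 without NI replicate 1, NI replicate 3, TNFDEX replicate 2 and TNFDEX replicate 3, with 706 regions tested without NI replicate 3. The number of lower calls was 0, 0, 110, 16, 2 and 0 without NI replicates 1, 2 and 3 and TNFDEX replicates 1, 2 and 3.

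The largest rise was inside Tox, which encodes an HMG-box transcription factor of T cells (chr4:6914231-6914418). It held 8.4, 20.3 and 10.2 in NI and 323, 250 and 507 in TNFDEX (log2 4.04, SE 0.45, limma adjusted p = 0.00156). The groups lay far apart. The region 4.20 kb from Arf6, the gene of a small GTPase of membrane traffic (chr12:69367734-69367950), rose from 23.8, 35.3 and 7.3 to 217, 125 and 230 (log2 2.52, SE 0.33, limma adjusted p = 0.00156). A region inside Ccdc85a (chr11:28422985-28423214) rose from 11.4, 18.4 and 7.8 to 133, 82.9 and 157 (log2 2.54, SE 0.32, limma adjusted p = 0.00156). One inside Trim16, which encodes a tripartite motif protein (chr11:62826371-62826590), rose from 12.9, 19.8 and 7.3 to 112, 70.0 and 111 (log2 2.15, SE 0.29, limma adjusted p = 0.00171). In these 4 regions the groups did not overlap. With Dex alone the Tox region held 254.8, 349.7 and 532.5 and the Arf6 region 157.6, 190.2 and 243.4. The Ccdc85a region held 76.3, 105.5 and 179.2 with Dex alone, and the Trim16 region 68.9, 85.7 and 126.7. The TNFDEX and DEX values thus overlapped at all 4. Similar rises were called near Yipf5 (log2 2.54), Kcne2 (1.66), Aldoart1 (1.51), Polr3b (1.49), Tmtc3 (1.48) and Snx13 (1.48).

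The 6 lower calls were made after the TMM scaling and lay near Cox10 (log2 -1.33, SE 0.30, limma adjusted p = 0.0214), Mycn (-1.19), Bzw2 (-1.06), Nrip1 (-1.03), Tle1 (-0.87) and Fto (-0.72). The Cox10 region (chr11:63957257-63957463) held 42.6, 64.3 and 14.5 in NI and 61.4, 9.8 and 22.2 in TNFDEX, and the groups overlapped. Scaled by library totals, 5 of the 6 differences were still below 0, from log2 -0.52 at Cox10 to -0.06 at Tle1, Fto turned to 0.09, and none was called.

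**Figure D4:**
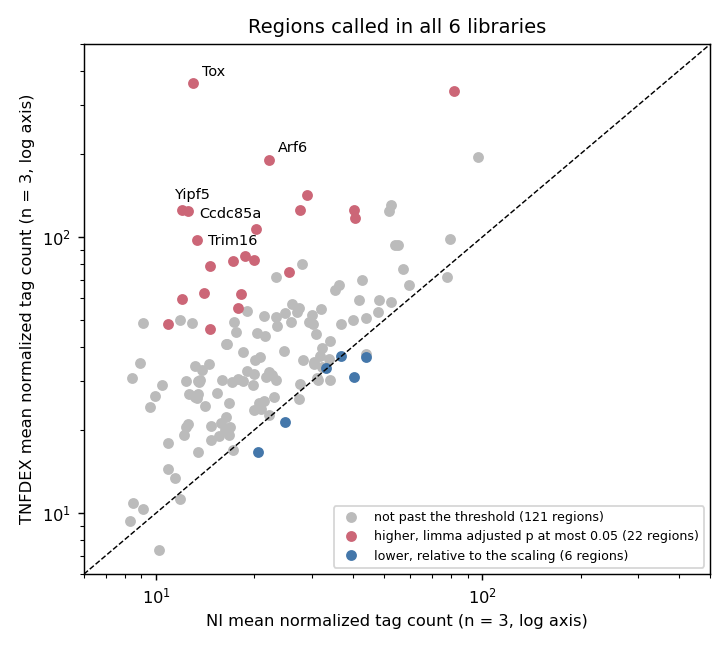
Mean normalized tag count in NI (x, log axis, n = 3) and TNFDEX (y, log axis, n = 3) of the 149 regions called in all 6 libraries; the dashed line marks equal values. Red points are the 22 regions called higher and blue points the 6 called lower by limma relative to the TMM scaling; most points lie above the line, and Tox is the farthest from it.

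Among regions called in all 3 NI libraries, those with the highest NI means were called in every treated group as well. They were chosen after their values were seen, and peaks found in fewer NI libraries reached higher values, up to 346. A region inside Skp2, the gene of a ubiquitin ligase subunit of the cell cycle (chr15:9114663-9114861), held 107, 150 and 33.4 in NI and 265, 119 and 198 in TNFDEX. A region 195 kb from Aldoart1 (chr4:73047901-73048081) held 72.8, 146 and 26.2 in NI and 397, 193 and 420 in TNFDEX, without overlap. A region inside Nfatc2, a transcription factor gene (chr2:168531983-168532307), held 81.2, 131 and 25.2 against 167, 37.5 and 90.0. One 32.8 kb from Tle3, a corepressor gene (chr9:61339363-61339552), held 90.1, 123 and 19.9 against 129, 32.1 and 53.0. The groups overlapped at Skp2, Nfatc2 and Tle3. The 10 highest by NI mean among regions called in 3 of 3 NI libraries were called in all 11 libraries, and NI replicate 3 had the lowest NI value at each of these 4.

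Every TNFDEX library had a smaller fraction of its GR peaks close to gene ends than any NI library. Peaks within 1 kb of either end of a protein-coding gene were 19.8%, 23.2% and 16.9% of the NI peaks and 9.25%, 6.92% and 6.66% of the TNFDEX peaks. The difference of the means was -12.4 percentage points (exact permutation p = 0.1, adjusted p = 0.1, the smallest possible), and -12.2 and -10.1 within the low and high mitochondrial sets. The numbers of such peaks overlapped, at 427 to 1508 in NI and 598 to 2090 in TNFDEX, while peaks elsewhere numbered 2094 to 4993 and 8041 to 20498. Peaks over 50 kb from any protein-coding gene made up 23.3% ± 1.58 (n = 3) in NI and 27.2% ± 0.456 in TNFDEX (exact permutation p = 0.1, the smallest possible). Within 1 kb of a gene end lay 4.05% of the gained regions, 10.1% of the 149 shared regions, 83.3% of the 12 NI-only regions and 11.9% of all merged regions. The median distance to a RefSeq start site was 28.9 kb for gained regions and 26.0 kb for all merged regions.

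Gene lists were described by how many members had a gained region within 50 kb, beside 4490 of all 21887 protein-coding genes (20.5%). The lists were chosen with earlier results of these data known, so no test was made. Long or isolated genes collect more regions, and 1 region can serve several genes. How often TNFDEX and DEX values lay apart over all regions was not counted. Single list members without overlap therefore do not describe their lists.

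Of 26 known glucocorticoid response genes, 24 had a gained region within 50 kb, all but Gadd45b and Anxa1. Zbtb16, Fkbp5 and Tsc22d3, which encodes the anti-inflammatory protein GILZ, each had 9 such regions. A region 0.174 kb from Zfp36, which encodes the mRNA-destabilising protein tristetraprolin (chr7:28376419-28376610), held 469, 248 and 508. A region inside Cdkn1a, the gene of the cell cycle inhibitor p21 (chr17:29094622-29094799), held 348, 202 and 396. With Dex alone the Zfp36 region held 291.5, 354.8 and 529.0 and the Cdkn1a region 270.7, 320.7 and 424.8. The TNFDEX and DEX values overlapped at both. List genes with any peak numbered 15, 14 and 5 in the NI libraries and 26, 24 and 25 in the TNFDEX libraries. Fkbp5, Klf9, Sgk1, Tgm2, Rgs2 and Lcn2 had no peak within 50 kb in any NI library and one in every TNFDEX library.

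Of 23 liver metabolism genes, 13 had a gained region. The strongest after that near Ass1 was inside Ppara, the gene of the fatty acid receptor of liver (chr15:85776821-85777009). It held 281, 214 and 354 with both agents and 52.5, 76.5 and 128 with Dex alone, and the groups did not overlap. The Ppara region did not pass in the limma test of TNFDEX against DEX. A region 41.2 kb from Igfbp1, which encodes an insulin-like growth factor binding protein (chr11:7156404-7156585), held 229, 56.7 and 119. One inside Tat, the gene of the classic GR target tyrosine aminotransferase (chr8:109987876-109988052), held 76.7, 87.6 and 137. With Dex alone the Igfbp1 region held 92.7, 112.2 and 122.8 and the Tat region 54.5, 61.2 and 115.9. The TNFDEX and DEX values overlapped at both. The gluconeogenic genes Pck1 and G6pc had no gained region within 50 kb.

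Of 28 NF-kB and TNF target genes, 8 had a gained region: Nfkbia, Csf1, Tnfaip3, Nfkbie, Tnfaip2, Cxcl1, Cxcl2 and Traf1. A region inside Nfkbia, which encodes the NF-kB inhibitor IkBa (chr12:55491890-55492093), held 248, 63.0 and 179 with both agents and 171, 205 and 162 with Dex. A region inside Csf1, a macrophage growth factor gene (chr3:107743737-107743920), held 85.0, 50.1 and 92.5 with both agents and 19.8, 25.5 and 21.1 with Dex, without overlap. The Csf1 difference between TNFDEX and DEX did not pass in limma. A region inside Tnfaip3, the gene of the NF-kB brake A20 (chr10:19009400-19009583), held 55.2, 36.8 and 66.2 with both agents and 8.4 and 19.8 in 2 DEX libraries. Nfkbia and Tnfaip3 each also had a gained region with no DEX or TNF call, as did 285 of all protein-coding genes (1.3%). A region that was not gained, 43.7 kb from the NF-kB cofactor gene Bcl3 (chr7:19866564-19866797), was called in 2 NI libraries at 30.7 and 47.4 and held 84.6, 21.1 and 49.3 with both agents. Il6, Ccl2, Icam1 and Vcam1 had no gained region within 50 kb.

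Of 24 acute phase genes, 11 had a gained region. A region 0.354 kb from Lbp, which encodes the lipopolysaccharide binding protein (chr2:158305963-158306139), held 281, 208 and 382. A region 2.73 kb from Cp, the ceruloplasmin gene (chr3:19953928-19954200), held 98.7, 54.4 and 96.2 and was called at 7.2 in 1 NI library. One 16.5 kb from Agt, the angiotensinogen gene (chr8:124586190-124586366), held 44.4, 17.6 and 34.1. With Dex alone the Lbp region held 147.7, 189.1 and 339.5, the Cp region 43.1, 52.0 and 59.9, and the Agt region 35.7, 41.3 and 53.4. The TNFDEX and DEX values overlapped at each. The 4 serum amyloid A genes shared 1 gained region at Saa3 (chr7:46719614-46719834), at 17.4, 26.2 and 32.5, which was called at 21.5 in 1 DEX library. The adjoining fibrinogen genes Fga, Fgb and Fgg shared the Fgb promoter region printed above. List genes with any peak within 50 kb numbered 3, 11 and 0 in the NI libraries and 15, 17 and 15 in the TNFDEX libraries, without overlap.

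Of 24 hepatocyte identity genes, 18 had a gained region. A region 23.2 kb from Hnf4a, the gene of a master hepatocyte transcription factor (chr2:163596089-163596271), held 351, 189 and 427. One 11.05 kb from Prox1, a homeobox gene of liver development (chr1:190106810-190106987), held 174, 108 and 193. One 1.01 kb from Krt8 and 22.7 kb from Krt18, keratin genes of epithelial cells (chr15:102005357-102005548), held 179, 43.8 and 90.5. With Dex alone the Hnf4a region held 208.7, 222.8 and 475.2, the Prox1 region 96.2, 106.0 and 160.7, and the Krt8 region 95.2, 111.1 and 86.2. The TNFDEX and DEX values overlapped at each. The Hnf4a, Prox1 and Krt8 regions were gained regions, so by definition they had no NI call at the same place.

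Of 17 circadian clock genes, 8 had a gained region. Regions inside the period and cryptochrome genes Per1 (chr11:69096990-69097173), Cry2 (chr2:92432794-92432970) and Per2 (chr1:91436398-91436584) held 338, 180 and 370, 184, 75.5 and 158, and 127, 67.3 and 135 in TNFDEX replicates 1, 2 and 3. One 24.8 kb from Dbp, a clock output factor gene (chr7:45680086-45680262), held 94.1, 70.0 and 119 with both agents and 33.2, 46.9 and 50.0 with Dex, without overlap. The Dbp difference between TNFDEX and DEX did not pass in limma. With Dex alone the Per1 region held 297.5, 397.7 and 335.6, the Cry2 region 116.0, 124.4 and 145.6, and the Per2 region 132.4, 149.9 and 145.2. The TNFDEX and DEX values overlapped at Per1, Cry2 and Per2.

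Of 20 AP-1 and immediate early genes, 9 had a gained region. A region 27.0 kb from Myc (chr15:62017314-62017496) held 255, 140 and 301, one inside Maff (chr15:79347918-79348114) held 148, 65.7 and 158, and one 19.8 kb from Klf6 (chr13:5841489-5841668) held 95.4, 54.4 and 95.0. With Dex alone they held 155.2, 235.0 and 282.6 (Myc), 57.0, 94.3 and 148.6 (Maff), and 44.1, 53.5 and 57.7 (Klf6). The TNFDEX and DEX values overlapped at each. Junb had a region 5.92 kb away (chr8:84984665-84984845) with calls of 69.7 and 33.7 in 2 TNFDEX libraries. Myc, Maff and Klf6 encode transcription factors and Junb an AP-1 subunit. Any peak was held by 15, 16 and 4 of these genes in NI and 18, 10 and 16 in TNFDEX, so the groups overlapped. The mean difference of 3.0 genes became -0.833 without NI replicate 3.

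Of 15 genes of GR and its coregulators, 4 had a gained region, among them Nr3c1, which encodes GR itself, Hsp90ab1 and Ncoa3. The strongest region near Nr3c1 held 128 and 42.4 in 2 TNFDEX libraries. Hsp90ab1 had its strongest region 24.9 kb away (chr17:45598118-45598305), at 53.9, 26.2 and 44.8, and that near Hsp90aa1 held 40.2, 13.3 and 23.8.

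Lists of genes not typical of hepatocytes gave 4 of 12 macrophage markers, 4 of 11 stromal and endothelial markers and 5 of 14 neuronal markers with a gained region (33.3%, 36.4% and 35.7%, against 20.5% of all genes). Members were then ranked by their strongest region within 50 kb, gained or not. The strongest macrophage markers were Cd14 at 83.8, 57.5 and 141 (45.7 kb away and inside Slc35a4), Ptprc, Adgre1 and Itgam. Among stromal and endothelial markers they were Stab2 at 106, 51.2 and 102 (43.7 kb away, with 18.3 and 30.4 in 2 NI libraries), Dcn at 52.3, 36.8 and 78.9, Kdr and Col1a1. Among neuronal markers Syt1 held 80.5, 46.5 and 91.3 in a region with calls of 11.7 in 1 DEX and 14.7 in 1 TNF library, followed by Snap25, Gria2 and Map2. The Stab2 and Snap25 regions were not gained, and Adgre1, Col1a1 and Gria2 had no gained region. GR regions thus also lay within 50 kb of genes that hepatocytes are not known for.

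A larger number of peaks by itself gives more genes with a peak, and 48.1% of all protein-coding genes had one in a TNFDEX library on average against 29.3% in NI. When only the 2521 strongest peaks of each library were kept, the mean difference in list genes with a peak was -0.333 for NF-kB and TNF targets, -2.33 for AP-1 and immediate early genes, -0.667 for GR and coregulators and -0.333 for neuronal markers. It stayed above 0 for liver metabolism (2.0), acute phase (1.33) and hepatocyte identity (5.0). It did not turn negative for the remaining lists either, which include macrophage markers and stromal and endothelial markers. The same difference over all protein-coding genes is not given here.

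**Figure D5:**
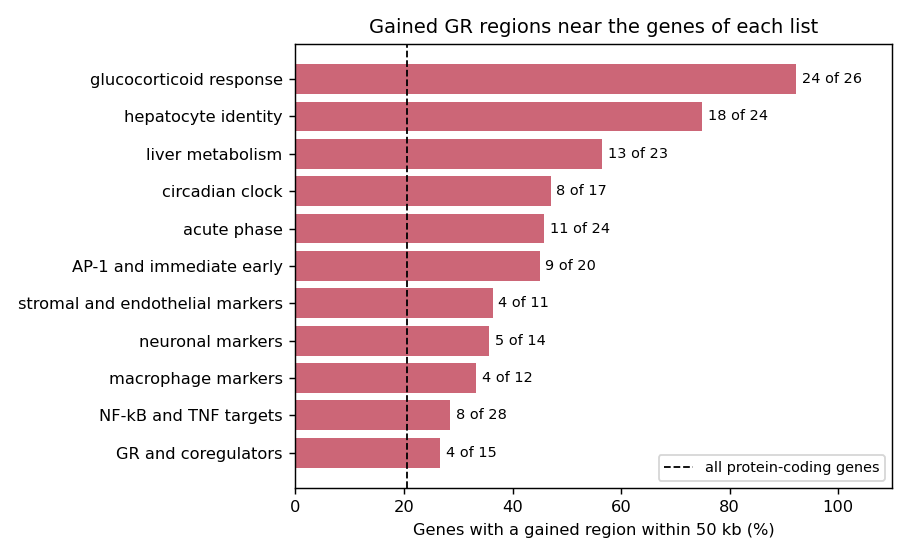
Share of the genes of each list with a gained region within 50 kb (bars, %, with the number of genes); the dashed line is the share of all protein-coding genes, 20.5%. Glucocorticoid response genes (24 of 26) and hepatocyte identity genes (18 of 24) have the longest bars, and GR and coregulators (4 of 15) the shortest.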

How the data were processed

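GR ChIP-seq peak lists of the NI and TNFDEX libraries were compared, with the DEX and TNF lists looked up at the same regions. The submitters' processing notes name Bowtie 1.0.0, CASAVA 1.8, HOMER 4.6 and mouse build mm10. How reads were trimmed, filtered or deduplicated is not given in the sources used here. findPeaks of HOMER was run in factor mode for every library against 1 input, per the file headers, with an FDR of 0.001, a Poisson p of 0.0001, and 4-fold more tags than the input and the surrounding 10000 bp. The deposited signal is the normalized tag count, the authors' tags per 20000000 in a window on that library's own peak, so no count model was run. The deposited ratios (fold over input and over surroundings) and the deposited fraction (focus ratio) describe single peaks, and only the fold over input was used, as a filter.

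Depth was 39228805 to 51141996 tags per library, and the weakest peaks of the 6 lists held 11 to 14 tags, few enough that counting error alone can decide whether a weak peak was called. Peaks sharing at least 1 bp were merged, and the largest peak was used where a library had several. limma 3.58.1 (R 4.3.3) was run on log2 normalized tag counts with TMM factors computed in R from regions called in every library, with Benjamini-Hochberg adjustment at 0.05, and was tested on simulated data. Library values were compared by exact two-sided permutation. Other steps used Python 3.11.15 with pandas 2.3.3, scipy 1.17.1, numpy 2.4.6 and, for figures, matplotlib 3.10.9. mm10 and RefSeq GRCm38.p6 share coordinates; gene spans (21887 protein-coding genes), start sites and promoter sequences came from RefSeq, without exons, so exons and introns were not separated. All 209 distinct genes of the 11 lists were found, and a few regions are not reported here. Motif shares were planned for all regions, but no genome sequence was used here, so they cover promoter windows only.

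Regions are named by the closest protein-coding gene, whether or not it is their target. Named were the 15 strongest gained regions, the 5 strongest of the opposite pattern, the 10 largest changes in each direction past the limma threshold, the 10 strongest gained regions without a DEX or TNF call, and the 4 list members with the strongest region. The strongest NI regions, the gained regions with 2 TNF calls, the promoters printed and the list members outside that rule were chosen after their values were seen. The test of TNFDEX against DEX was added after seeing the data. Members and lists were chosen with earlier results of these data known. Alternatives were other merging, scaling, filters, windows, a replicate block, a term for the mitochondrial set, equal numbers of peaks and leaving out each library.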

Additional observations from a re-analysis of the deposited data

How the results depend on the processing

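Peak number, tag share and both position shares kept their direction under every alternative tried, and their exact permutation p was never below 0.1, which is the smallest 3 libraries against 3 allow. The gained count of 4473 was 1843 with a normalized tag count of at least 20 in each peak, 1289 with the 2521 strongest peaks of each library, and 4487 to 8298 with single libraries left out. The count of 12 NI-only regions was 0, 74 and 12 to 269 under the same settings, and 3 with at least 8-fold over input. The 211 gained regions without a DEX or TNF call were 71, 51 and 211 to 1056. Leaving out a library loosens the rules for these region counts, so a rise there is built in. The 22 higher limma calls were 194 among the 1175 regions with 2 libraries of each group and 10 to 141 with single libraries left out. The 6 lower calls were 98, and 0 to 110, under the same settings, 0 with library totals, 16 with a mean of at least 20, 15 with the replicate block and 31 with the mitochondrial set as a term. The list differences that turned negative with equal numbers of peaks were NF-kB and TNF targets (-0.333), AP-1 and immediate early genes (-2.33), GR and coregulators (-0.667) and neuronal markers (-0.333). AP-1 genes also turned with single libraries left out (-0.833 without NI replicate 3, to 5.33 without TNFDEX replicate 2), macrophage markers with a 10 kb window (-0.667) and Fto with library totals (log2 0.0895). Deviations of same-numbered libraries from their group means correlated at 0.27, -0.47 and 0.37. So few libraries cannot show whether the numbers mark pairs, and they were not treated as pairs. With the replicate block limma called 27 higher and 15 lower. The cause of these shifts was not tested.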
